A study of Mus with 6 samples.

Results

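The genes described are 10 transcripts used to tell classes of inhibitory neurons apart in the mouse brain. They encode the calcium buffers parvalbumin (Pvalb), calbindin (Calb1) and calretinin (Calb2), the neuropeptide precursors Sst, Vip, Npy, Cck, Penk and Tac1, and the secreted glycoprotein reelin (Reln). They were taken by gene symbol from a table of normalized counts, where all 10 were found among 18887 genes, and all 10 were among the 14698 genes tested. The series holds 4 libraries labelled IRKO with the genotype KO and 2 control libraries with the genotype Ctr, all of mouse whole brain and all labelled as microglia. The series' title speaks of lost insulin signalling, and IRKO is taken to mean an insulin receptor knockout. All 6 libraries are RiboTag precipitates, in which a tagged ribosomal protein made in a chosen cell type is pulled down with the mRNA on its ribosomes. The labels state no strain, age, sex, or promoter that drives the tag or the deletion, and no input library was analysed here.

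Interneurons release GABA and shape the timing of local circuits. Their classes are named by what they contain: parvalbumin marks fast-spiking cells, somatostatin and neuropeptide Y mark cells that contact dendrites, and Vip marks cells that mostly inhibit other interneurons. The calcium buffers bind calcium that enters during firing. The neuropeptides are made as precursors, cut by prohormone convertases, stored in dense core granules and sensed by G protein-coupled receptors, whereas reelin acts through lipoprotein receptors. None of the 10 is confined to cortical interneurons. Purkinje cells of the cerebellum make parvalbumin and calbindin, many excitatory neurons make cholecystokinin, striatal projection neurons make enkephalin (Penk) or substance P (Tac1), and olfactory bulb interneurons make calretinin.

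The recovered depth was 13859000 to 14568800 reads in the IRKO libraries and 16883100 and 19010700 reads in the Ctr libraries. Insr, the gene for the insulin receptor, had 290 to 366 normalized counts in IRKO and 565 and 532 in Ctr (limma adjusted p = 0.00211). Of the list of 30 microglial markers, all 30 were tested and none was at 0 in any library. The list summed to 338771 to 465986 normalized counts in IRKO and to 189537 and 144084 in Ctr. The 25 astrocyte markers summed to 105028 to 152210 in IRKO and to 1702930 and 1389010 in Ctr. All 25 were called lower in IRKO, also with the libraries scaled to the microglial or the pan-neuronal list. Of 18 oligodendrocyte genes 11 were called higher (4 without Ctr replicate 2) and 3 lower, of 13 endothelial genes 6 higher and 1 lower, and of 6 tested red blood cell genes none higher and 6 lower. These shifts run in the same libraries as every result below, and their part in those results was not tested. Limma called 8173 genes (55.6% of those tested) at a threshold of 0.05 on the adjusted p, with 26.6% of tested genes higher and 29.0% lower in IRKO.

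As deposited, 7 of the 10 genes were higher in IRKO and none was called lower. The 7 were Pvalb, Calb1, Sst, Npy, Cck, Reln and Tac1, and in each of them all 4 IRKO values lay above both Ctr values. That held for 32.8% of all tested genes, while in 34.8% all 4 IRKO values lay below both Ctr values, and 26.6% of tested genes were called higher. Calb2, Vip and Penk were not called, and their groups overlapped. The median log2 change of the 10 genes was 1.06, against 0.02 for all tested genes. Limma, edgeR and DESeq2 each called 7 genes higher and 0 lower, and no gene was lower at an unadjusted limma p under 0.05. Without 1 library at a time, 7 or 8 genes were called higher. The count depends on the scale: with the libraries scaled to an equal level of the microglial list, none of the 10 was called higher and 5 were called lower. In that scaling 0.456% of all tested genes were called higher and 80.1% lower, and the median of all genes moved to −1.44. In bulk precipitates, a larger amount of neuronal RNA in the sample and more RNA per neuron cannot be told apart.

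**Figure D1:**
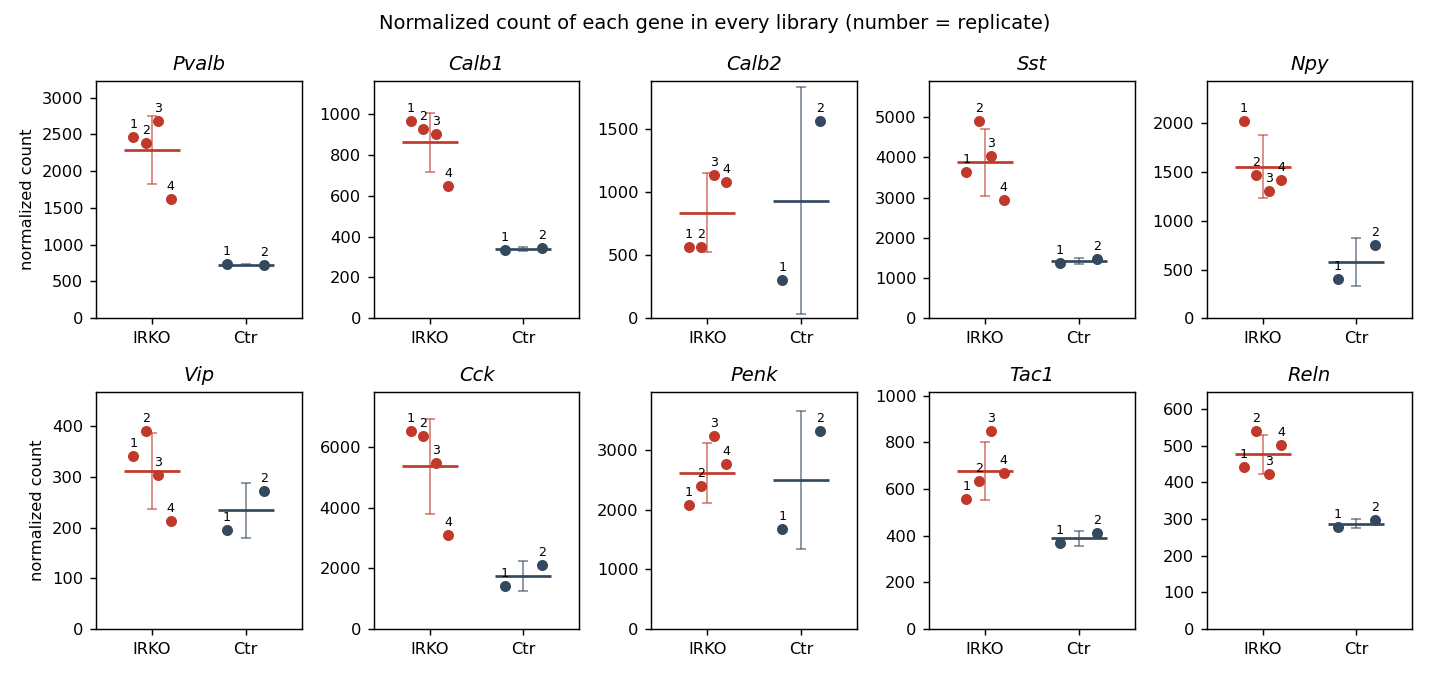
Normalized count of each of the 10 genes (vertical axes, from 0) in the 4 IRKO libraries (red, left) and the 2 Ctr libraries (dark, right). Points are libraries with their replicate number, bars are means and whiskers are SD; Calb2, Vip and Penk are the genes whose groups overlap.

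Among the calcium buffers, Pvalb and Calb1 were higher in IRKO as deposited, and Calb2 did not separate the groups. Pvalb (chromosome 15, 78191112 to 78206400 in GRCm38.p6) had 2470, 2383, 2688 and 1618 normalized counts in IRKO replicates 1 to 4, against 732 and 726 in Ctr replicates 1 and 2. The lowest IRKO library, replicate 4, was 2.21 times the higher Ctr library. The mean was 2290 ± 466 in IRKO (SD, n = 4) and 729 ± 4.30 in Ctr (SD, n = 2). Its fold change of 3.08 had a 95% confidence interval of 2.30 to 4.14 (limma adjusted p = 0.000113). Only 2.86% of tested genes had a larger log2 change.

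Calb1 (chromosome 4, 15881264 to 15906709) encodes calbindin, a buffer of Purkinje cells and of several interneuron and projection neuron classes. It had 968, 926, 904 and 649 normalized counts in IRKO, against 332 and 345 in Ctr. Replicate 4 was again the lowest IRKO library and the groups did not overlap. The fold change was 2.51 with a 95% confidence interval of 1.93 to 3.26 (limma adjusted p = 0.000184). With scaling to the microglial list the log2 change of Pvalb was 0.16 and that of Calb1 turned to −0.14, neither past limma's threshold (adjusted p = 0.582 for Pvalb and 0.619 for Calb1).

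Calb2 (chromosome 8, 110142526 to 110168212), the gene for calretinin, had 563, 567, 1135 and 1077 normalized counts in IRKO, against 299 and 1568 in Ctr. The 2 Ctr libraries were the lowest and the highest of all 6. Their ratio of 5.24 was exceeded by the difference between the Ctr libraries in 0.284% of the 11258 tested genes with a mean of at least 100. The mean was 835 ± 313 in IRKO (SD, n = 4) and 933 ± 897 in Ctr (SD, n = 2), whereas the log2 change from the mean of logs was 0.21 ± 0.566 (SE), so the sign differs between these summaries. The 95% confidence interval of the fold, 0.475 to 2.80, includes both a rise and a fall of more than 2-fold (limma adjusted p = 0.776). Without Ctr replicate 2 the log2 change was 1.40 (limma adjusted p = 0.0195), and without Ctr replicate 1 it was −0.99 (limma adjusted p = 0.0741).

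The split between the Ctr libraries was also seen in markers of olfactory bulb neurons, a list of 10 genes written after the data had been seen. All 10 were higher in Ctr replicate 2 than in Ctr replicate 1, and none was at 0 in any library. Ctr replicate 2 was the highest of the 6 libraries for 5 of the 10. The share of all tested genes higher in Ctr replicate 2 was not counted, and the pan-neuronal list also leaned that way, by a median log2 difference of 0.21. The list summed to 2694, 2448, 1421 and 3120 normalized counts in IRKO replicates 1 to 4, against 767 and 3907 in Ctr replicates 1 and 2. Th, which makes the dopamine precursor in periglomerular cells, had 97.6 to 172 normalized counts in IRKO, against 8.998 and 411 in Ctr. Scgn, the calcium sensor secretagogin, had 10.7 to 54.5 in IRKO, against 1.12 and 99.7 in Ctr. Ctr replicate 2 was the highest library for both genes and Ctr replicate 1 the lowest. Within IRKO the order differed from that of Calb2: the list was lowest in replicate 3, where Calb2 was the highest of the 4. S100a5, at 216 to 501 normalized counts in IRKO replicates 1, 2 and 4 and 208 in Ctr replicate 2, stood at 0.972 in IRKO replicate 3 and 1.12 in Ctr replicate 1. The part of this tissue in the Calb2 result was not tested.

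**Figure D2:**
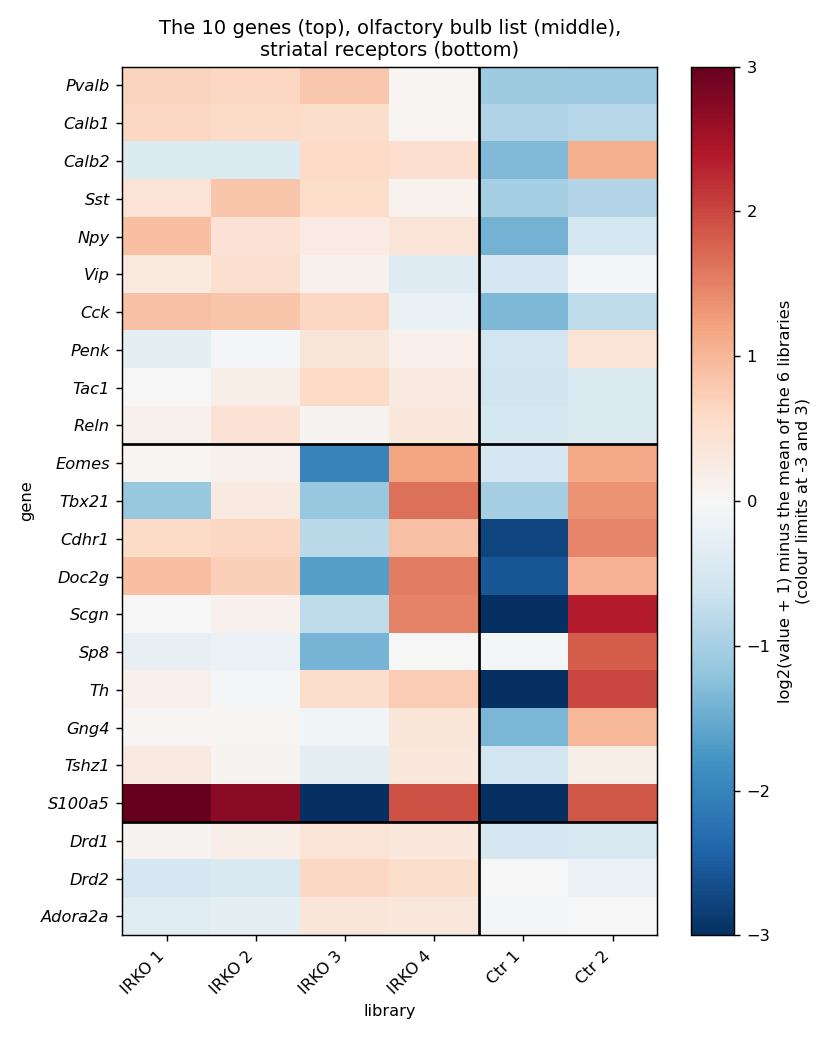
Log2(value + 1) of each gene minus its mean over the 6 libraries (colour, limits at −3 and 3), for the 10 genes, the olfactory bulb list and 3 striatal receptors (rows) in IRKO libraries (left) and Ctr libraries (right). Ctr 1 and Ctr 2 have opposite colours for Calb2, Scgn and Th, while Pvalb, Calb1, Sst, Npy and Cck are lower in both Ctr libraries than in all 4 IRKO libraries.

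Among the neuropeptides of interneurons, Sst, Npy and Cck were higher in IRKO as deposited and Vip was not called. Sst (chromosome 16, 23889573 to 23891342), the precursor of somatostatin, had 3629, 4915, 4029 and 2932 normalized counts in IRKO, against 1368 and 1483 in Ctr. All 4 IRKO libraries were at least 1.98 times the higher Ctr library. Limma gave a fold change of 2.67 with a 95% confidence interval of 2.00 to 3.57 (limma adjusted p = 0.00022).

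Npy (chromosome 6, 49822710 to 49829507), the precursor of neuropeptide Y, had 2030, 1471, 1302 and 1423 normalized counts in IRKO, against 406 and 751 in Ctr. The Ctr libraries differed 1.85-fold from each other, but the higher of them stayed below every IRKO library. The fold change was 2.77 with a 95% confidence interval of 1.88 to 4.08 (limma adjusted p = 0.000957).

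Cck (chromosome 9, 121489824 to 121495694), the precursor of cholecystokinin, had 6521, 6354, 5465 and 3103 normalized counts in IRKO, against 1400 and 2092 in Ctr. IRKO replicate 4 was the lowest IRKO library and lay above both Ctr libraries. The mean was 5361 ± 1575 in IRKO (SD, n = 4) and 1746 ± 489 in Ctr (SD, n = 2). The fold change was 3.01 with a 95% confidence interval of 1.90 to 4.75 (limma adjusted p = 0.00159). Scaled to the microglial list, the log2 changes of Npy and Cck were 0.0053 and 0.12 and that of Sst turned to −0.05, and none of the 3 passed limma's threshold.

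Vip (chromosome 10, 5639193 to 5647617), the precursor of vasoactive intestinal peptide, had 341, 390, 304 and 212 normalized counts in IRKO, against 196 and 272 in Ctr. IRKO replicate 4 lay between the Ctr libraries and the other 3 IRKO libraries lay above both. Its fold change of 1.32 had a 95% confidence interval of 0.902 to 1.93 (limma adjusted p = 0.188). Without IRKO replicate 4 it was called higher, with a log2 change of 0.57 (limma adjusted p = 0.0348). The log2 change was 0.16 without Ctr replicate 1 and 0.63 without Ctr replicate 2, neither past limma's threshold (adjusted p = 0.689 and 0.115). The gap to Sst can be read within each library, where no scaling between libraries enters. Sst was 10.7, 12.6, 13.2 and 13.8 times the Vip value in IRKO, against 6.99 and 5.45 times in Ctr. Cck was 14.6 to 19.1 times the Vip value in IRKO, against 7.16 and 7.69 times in Ctr. Both ratios were higher in all 4 IRKO libraries than in both Ctr libraries. These pairs were picked after their values were seen, so the ratios are given without a test. The share of gene pairs without overlap was not counted. As counts are not corrected for gene length, the ratios do not compare the levels of the genes with each other. Among other ratios computed, Pvalb over Calb2 overlapped between the groups, at 1.502 to 4.391 in IRKO, against 2.447 and 0.463 in Ctr. Sst over Penk and Pvalb over Penk were higher in all 4 IRKO libraries than in both Ctr libraries.

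Penk and Tac1 mark the pair of striatal projection pathways as well as smaller interneuron groups. Penk (chromosome 4, 4133536 to 4138815), the precursor of the enkephalins, had 2072, 2392, 3234 and 2768 normalized counts in IRKO, against 1679 and 3314 in Ctr. Ctr replicate 2 was the highest library and Ctr replicate 1 the lowest. Its fold of 1.09 had a 95% confidence interval of 0.728 to 1.64 (limma adjusted p = 0.692). Without Ctr replicate 1 the log2 change was −0.36 and without Ctr replicate 2 it was 0.62, neither past limma's threshold (adjusted p = 0.239 and 0.0559).

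Tac1 (chromosome 6, 7555061 to 7562978), the precursor of substance P and neurokinin A, had 559, 633, 847 and 668 normalized counts in IRKO, against 367 and 411 in Ctr. The lowest IRKO library was 1.36 times the higher Ctr library. The fold change was 1.72 with a 95% confidence interval of 1.33 to 2.23 (limma adjusted p = 0.00352), and scaling to the microglial list turned the log2 change to −0.68 (limma adjusted p = 0.0216). Penk was 3.71 to 4.14 times the Tac1 value in IRKO, against 4.58 and 8.05 times in Ctr, so that this ratio was lower in all 4 IRKO libraries. The 2 Ctr libraries lay further from each other than the nearer of them lay from IRKO. This pair too was picked after its values were seen, and the share of gene pairs without overlap was not counted.

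Receptors of the striatal pathways were set beside these peptides. Drd1, the dopamine receptor of the substance P pathway, had 341 to 428 normalized counts in IRKO, against 227 and 232 in Ctr, and was called higher (log2 change 0.74 ± 0.137, SE, limma adjusted p = 0.00165). Drd2, the dopamine receptor of the enkephalin pathway, had 235, 242, 518 and 482 in IRKO, against 332 and 298 in Ctr, and was not called (limma adjusted p = 0.747). Adora2a, an adenosine receptor of the same pathway, had 352, 378, 586 and 573 in IRKO, against 436 and 458 in Ctr (limma adjusted p = 0.892). Drd2 and Adora2a were higher in IRKO replicates 3 and 4 than in replicates 1 and 2, as were Calb2 and Penk. Of the 11 genes in the list of striatal projection neurons, 3 were called higher, Drd1 and Pde1b among them, and Ppp1r1b was called lower, with a median log2 change of 0.40 as deposited, −1.06 scaled to the microglial list and −0.41 scaled to the pan-neuronal list. That median was 0.10 without Ctr replicate 2 and 0.20 without IRKO replicate 4, and without Ctr replicate 1 none of the 11 was called lower.

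Reln (chromosome 5, 21884454 to 22344705) is secreted by cortical interneurons, cerebellar granule cells and mitral cells. It had 441, 539, 423 and 501 normalized counts in IRKO, against 278 and 296 in Ctr, with no overlap between the groups. Reln rose 1.65-fold with a 95% confidence interval of 1.33 to 2.05 (limma adjusted p = 0.00208). Its spread within IRKO was the smallest of the 10 genes, at an SD of 0.162 on the log2 scale, where 51.5% of the genes compared had a larger SD. Scaled to the microglial list the log2 change turned to −0.74 (limma adjusted p = 0.00565).

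By log2 change as deposited, the genes ran from Pvalb (1.62) through Cck (1.59), Npy (1.47), Sst (1.42), Calb1 (1.33), Tac1 (0.78), Reln (0.72), Vip (0.40) and Calb2 (0.21) to Penk (0.13). The 95% confidence intervals of every pair of neighbours in this order overlapped, so the order between neighbours is not settled by these data. At least a 2-fold rise together with a call was reached by 5 of the 10, against 11.5% of tested genes. Within IRKO, replicate 4 was the lowest of the 4 libraries for 5 genes and the highest for none. The median deviation of the 10 genes in that library was −0.24 on the log2 scale, and that of the pan-neuronal list was −0.20. Between the Ctr libraries, 9 of the 10 genes were higher in replicate 2. The median difference of the 10 was 0.32, with a median of 0.21 for the pan-neuronal list. The differences of the 9 ran from 0.055 for Calb1 to 2.39 for Calb2 on the log2 scale. The share of all tested genes higher in Ctr replicate 2 was not counted.

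Other neuronal transcripts moved with the 10 genes, so each was also set against a list of 20 pan-neuronal genes. Of that list 17 were called higher in IRKO as deposited and none lower, with a median of 0.91 that was −0.56 scaled to the microglial list. Celf4, an RNA-binding protein of neurons, had a log2 change of 1.07 ± 0.119 (SE, limma adjusted p = 8.72e-05) and Stmn2, a microtubule regulator, 1.24 ± 0.145 (limma adjusted p = 0.00012). The list summed to 113463 to 146021 normalized counts in IRKO, against 66472 and 86326 in Ctr. Per 1000 counts of that sum, Pvalb stood at 18.5, 16.7, 18.4 and 14.3 in IRKO, against 11.02 and 8.41 in Ctr. Sst stood at 27.1, 34.4, 27.6 and 25.8 in IRKO, against 20.6 and 17.2 in Ctr. For both genes the groups did not overlap on this scale either. Penk and Vip went the other way, also without overlap. The share of all tested genes without overlap on this scale was not counted. With the libraries scaled to this list's mean log2 value, as below, 59.1% of tested genes were called lower and 3.51% higher, so a fall is common. Penk stood at 15.5, 16.8, 22.1 and 24.4 in IRKO, against 25.3 and 38.4 in Ctr. Vip stood at 2.55, 2.74, 2.08 and 1.87 in IRKO, against 2.94 and 3.15 in Ctr.

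When each library was divided so that the pan-neuronal list had the same mean log2 value in all 6, Pvalb (log2 change 0.81 ± 0.182, SE), Cck (0.77 ± 0.227), Npy (0.65 ± 0.244), Sst (0.60 ± 0.173) and Calb1 (0.51 ± 0.190) were still called higher, with limma adjusted p-values from 0.00158 to 0.0312. In this scaling 3.51% of all tested genes were called higher and 59.1% lower, and the median of all genes was −0.79. Reln stood at −0.10 and Tac1 at −0.04, where neither passed limma's threshold (adjusted p = 0.715 and 0.890). Vip (−0.42) and Calb2 (−0.61) were below 0 and also not called. Penk was called lower (−0.69 ± 0.226, limma adjusted p = 0.0162), near the median of all genes.

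**Figure D3:**
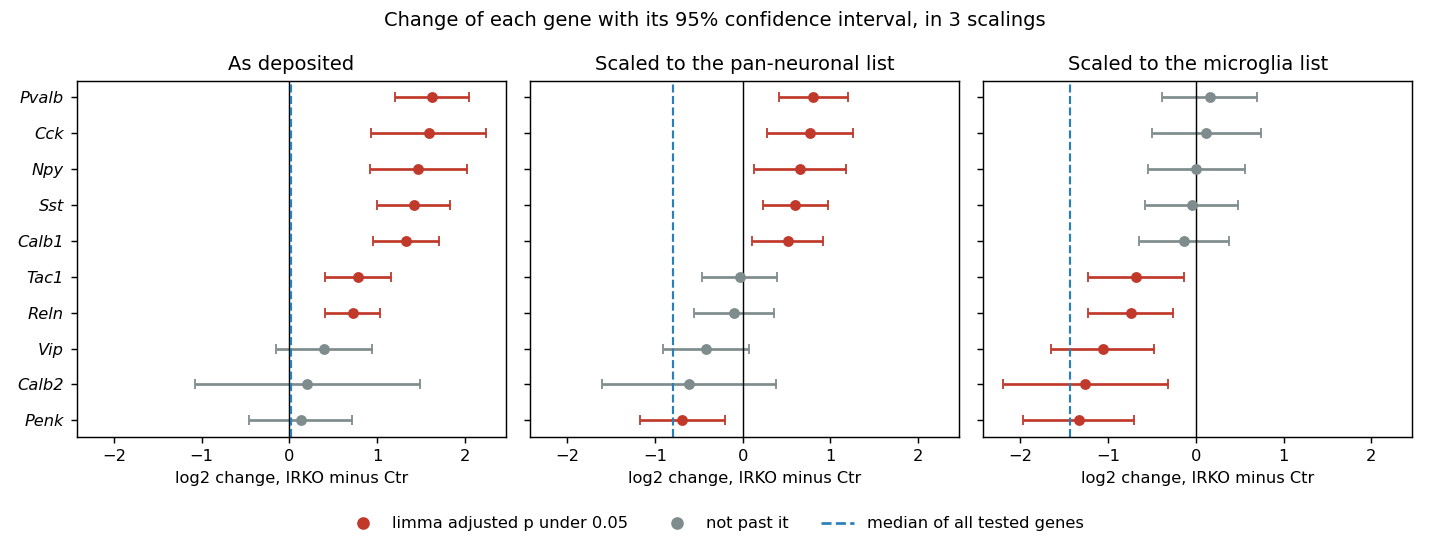
Log2 change of each gene, IRKO minus Ctr (horizontal axes), with its 95% confidence interval, for values as deposited, scaled to the pan-neuronal list and scaled to the microglial list. Pvalb, Cck, Npy, Sst and Calb1 are past limma's threshold in the first and second panels; in the third none of the 10 is called higher and Tac1, Reln, Vip, Calb2 and Penk are called lower, while the median of all genes (dashed) lies at −1.44.

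The receptors of these peptides were also mostly higher as deposited. Of 16 tested genes for neuropeptide and reelin receptors, with the reelin adaptor Dab1, 10 were called higher and 2 lower, with a median log2 change of 1.06 that was −0.38 scaled to the microglial list. Sstr1, a somatostatin receptor, had 111 to 154 normalized counts in IRKO, against 42.7 and 31.0 in Ctr. Its log2 change was 1.87 ± 0.226 (SE, limma adjusted p = 0.00015). Sstr2 changed by 1.32 ± 0.249, Npy1r, a receptor for neuropeptide Y, by 1.38 ± 0.250, and Vipr1, a receptor for Vip that leukocytes also carry, by 1.38 ± 0.168. The 2 genes called lower, Lrp8 and Dab1, belong to the reelin pathway, but Vldlr, the other reelin receptor, did not share their direction. Vldlr had 472, 413, 655 and 468 normalized counts in IRKO, against 355 and 360 in Ctr, and was not called (log2 change 0.47 ± 0.178, SE, limma adjusted p = 0.0502). Lrp8, a reelin receptor, had 455 to 573 normalized counts in IRKO, against 1042 and 911 in Ctr, and fell by 0.93 on the log2 scale (limma adjusted p = 0.000358). Dab1, the adaptor that the receptors signal through, had 908 to 1049 in IRKO, against 1436 and 1317 in Ctr, and fell by 0.54 on the log2 scale (limma adjusted p = 0.00315). Reln itself was higher in the same libraries as deposited, a sign that turned when scaled to the microglial list. Which cells the Lrp8 and Dab1 transcripts came from was not measured.

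Genes for peptide processing and dense core granules were called higher in 13 of 18 cases and lower in 2 as deposited, with a median of 0.85 that was −0.62 scaled to the microglial list. The median fell to 0.51 without Ctr replicate 1 and was 0.94 without Ctr replicate 2. Without each single IRKO library, 12 or 13 of the genes were called higher. Cadps, which primes granules for release, had 1028 to 1160 normalized counts in IRKO, against 553 and 580 in Ctr (log2 change 0.98 ± 0.108, SE, limma adjusted p = 8.43e-05). Pcsk2, a prohormone convertase, had 1554 to 2181 in IRKO, against 991 and 1054 in Ctr (log2 change 0.87 ± 0.144, limma adjusted p = 0.000857). The granule membrane proteins Ptprn and Ptprn2 changed by 0.88 ± 0.174 and 0.84 ± 0.134. Cpe, carboxypeptidase E, fell by 3.76 on the log2 scale, at 17870 to 23046 normalized counts in IRKO, against 288489 and 274630 in Ctr. Scg3, a granin, fell by 3.54, at 1458 to 1952 in IRKO, against 20903 and 17307 in Ctr. The falls of Cpe and Scg3 lay within the range of the astrocyte list (−5.13 to −2.69), and which cells their transcripts came from was not measured.

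Of 20 tested genes for other neuronal calcium-binding proteins, 16 were called higher and none lower as deposited, with a median of 0.94 that was −0.53 scaled to the microglial list. Without 1 library at a time, 13 to 17 were called higher. Hpcal1, a neuronal calcium sensor, had 620 to 833 normalized counts in IRKO, against 270 and 308 in Ctr (log2 change 1.36 ± 0.143, SE, limma adjusted p = 6.68e-05). Kcnip4, which tunes A-type potassium channels, changed by 1.27 ± 0.170, Necab3 by 0.96 ± 0.121 and Hpcal4 by 0.93 ± 0.126.

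Among the 17 other neuropeptide precursors tested, 8 were called higher and 2 lower as deposited, with a median of 0.79 that was −0.62 scaled to the microglial list and −0.0091 scaled to the pan-neuronal list. Without Ctr replicate 1 only 3 were called higher, and without each of IRKO replicates 2, 3 and 4 it was 4 or 5. Cartpt, the precursor of the CART peptides, had 189, 218, 493 and 327 normalized counts in IRKO, against 66.4 and 109 in Ctr (log2 change 1.73 ± 0.366, SE, limma adjusted p = 0.00337). Adcyap1, the precursor of the Vip-related peptide PACAP, changed by 1.15 ± 0.224, Pdyn, the precursor of the dynorphins, by 0.79 ± 0.215 and Crh by 0.85 ± 0.278. Nmb fell by 0.83 on the log2 scale. Oxt, the oxytocin precursor, had 0.986 to 9.72 normalized counts in IRKO, against 57.4 and 15.5 in Ctr, and without Ctr replicate 2 no precursor of the list was called lower, and without IRKO replicate 4 only 1 was.

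General GABA neuron genes were mixed. Of 27, 14 were called higher and 5 lower as deposited, with a median of 0.71 that was −0.76 scaled to the microglial list and −0.11 scaled to the pan-neuronal list. Without Ctr replicate 1, 9 were called higher, and without Ctr replicate 2, 3 were called lower. Adarb2, of Vip and other interneurons of the caudal ganglionic eminence, changed by 1.42 ± 0.240 (SE), Kcnc2, a potassium channel of fast-spiking cells, by 1.27 ± 0.161, Erbb4, a neuregulin receptor, by 1.10 ± 0.123 and Cnr1, the cannabinoid receptor of Cck interneurons, by 1.05 ± 0.130. Sox6, a transcription factor of Pvalb and Sst interneurons that also acts in oligodendrocyte precursors, fell by 2.10 on the log2 scale, at 109 to 131 normalized counts in IRKO, against 570 and 467 in Ctr. Dlx2, a factor of young GABA neurons, fell by 1.74, at 45.7 to 121 in IRKO, against 216 and 305 in Ctr. These 2 falls were called by limma in the same libraries in which Pvalb and Sst were called higher and all 25 astrocyte genes lower. Which cells the Sox6 and Dlx2 transcripts came from was not measured.

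**Figure D4:**
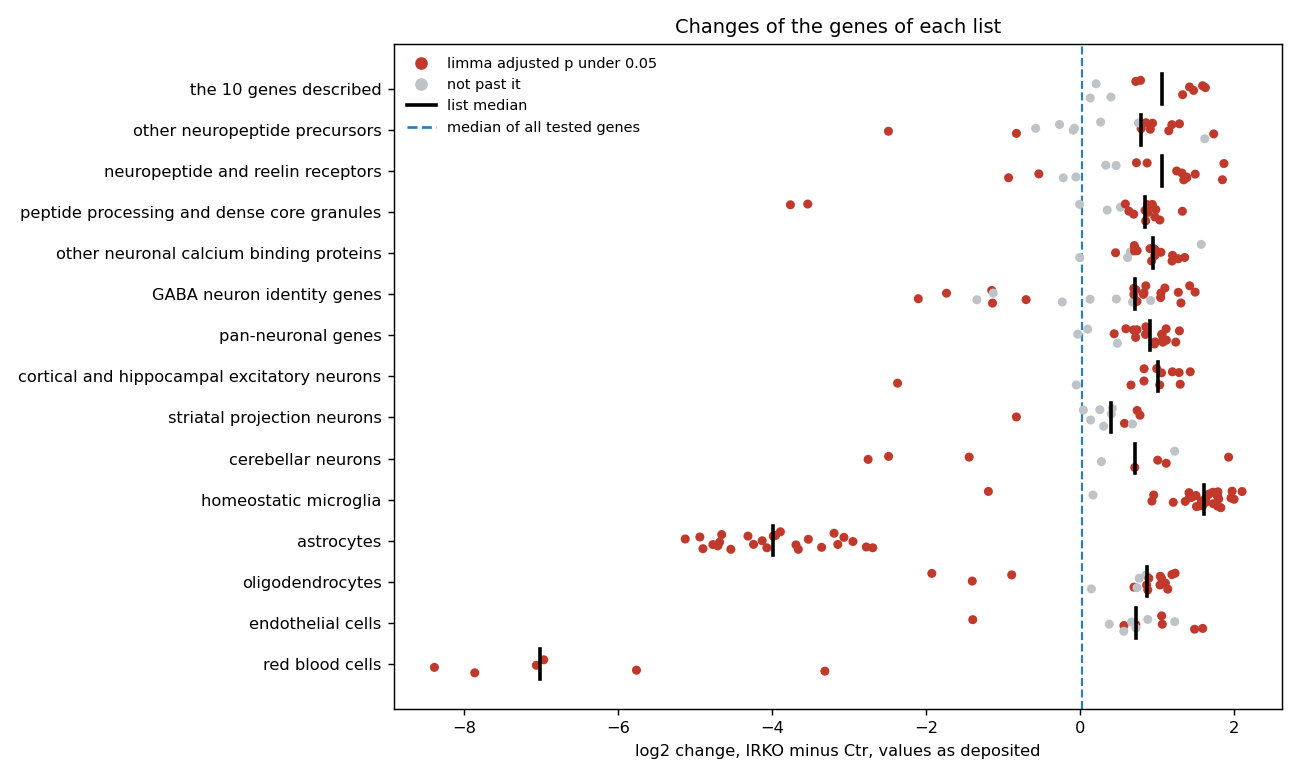
Log2 change, IRKO minus Ctr, of each tested gene (points) in each list (rows), values as deposited, with list medians (black bars) and the median of all tested genes (dashed). The 10 genes have a median of 1.06 and the astrocyte list −3.99. Scaled to the microglial list, the medians of all neuronal lists shown lie below 0 but above the median of all tested genes (−1.44).

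The genes whose profiles over the 6 libraries lay nearest to each of the 10 were found among 11083 tested genes, those with a mean of at least 100 and a symbol other than that of a predicted or clone-named gene, by the root mean square difference of log2 values centred on each gene's mean. Elavl2, a neuronal RNA-binding protein, lay nearest to Pvalb (0.122 on the log2 scale), and Bdnf, a neurotrophin, nearest to Sst (0.0717). Bhlhe22, a neuronal transcription factor, was second for both Pvalb (0.131) and Calb1 (0.0715). Ttc9b was second for Sst (0.0852). Fhl2 (0.113) and Klf2 (0.138) lay nearest to Npy, Fabp3 (0.152) and Slitrk4 (0.158) to Cck, and Zcchc10 (0.0612) and Yjefn3 (0.0691) to Vip. Slc32a1, the vesicular GABA transporter, lay nearest to Penk (0.0629), followed by Hap1 (0.111). It had 445, 550, 759 and 663 normalized counts in IRKO, against 405 and 726 in Ctr, the same order of the IRKO libraries as Penk. Prr36 (0.0553) and Ptprn2 (0.0604) lay nearest to Tac1, and Hivep3 (0.0479) and Kcnd1 (0.0502), a potassium channel, to Reln. The nearest to Calb2 were Grm4, a metabotropic glutamate receptor (0.271), and Ablim3 (0.335), at a greater distance than for the other 9 genes.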

How the data were processed

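The authors deposited 1 table of normalized counts, a signal per gene: reads divided by 1 size factor per sample, judged from the deposited values and per the file headers, which give sample titles. Per the submitters' processing notes, Bowtie2 and GRCm38.p6 were used. How reads were counted, with which annotation and strand setting, and which tool normalized them is not given in the sources used. In each library 100% of values were whole multiples of its smallest value within 0.05 reads. In IRKO replicate 1 that value was 0.991, near 1, but its larger values were multiples of this step and not whole numbers (2470.48 for the 2494 reads of Pvalb). Count tests were also run without that library. Testing was limited to genes that reached a value of 10 in 2 or more samples, and used limma 3.58.1 in R 4.3.3 on log2(value + 1), IRKO minus Ctr, with a variance trend, two-sided, with Benjamini-Hochberg adjustment over all 14698 genes and a threshold of 0.05. Folds are on that scale. edgeR 4.0.16 and DESeq2 1.42.0 were run on the recovered reads. Nothing in the labels ties replicates to separate animals; the p-values therefore reflect only how far these samples spread, possibly for technical reasons. Their counts differed by a chi-square of 16.8 to 36.9 per degree of freedom, so none was taken as a duplicate.

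The members and lists were chosen with earlier results of these data known, so list counts are descriptions. Named were the 10 genes, in each list the called genes of smallest p (at most 4 in the direction with more calls, at most 2 in the opposite one), and the 2 nearest profiles of each gene. Other genes named, such as Drd2, Adora2a, Slc32a1 and the olfactory bulb list, were chosen after their values were seen. A few genes that this rule names are not reported here. Gene positions are from the RefSeq gene table of GRCm38.p6, which matched 18542 symbols. In simulated data with only 200 changed genes per run, the share of them recovered was 14.6% at 1.5-fold, 61.8% at 2-fold and 90.9% at 4-fold. There 8.10% of calls fell on unchanged genes (14665 to 14691 genes tested in each of 5 runs). In the real comparison 8173 genes were called, so the simulated setting differs and these shares do not carry over to it.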

Additional observations from a re-analysis of the deposited data

Results flagged for a closer look

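Among the 4 IRKO libraries, 81 named genes were examined for 1 library lying far from the other 3, and chance flags about 1 in 20. None of the 10 genes described was picked out, and 6 others were. Dab1 had 1049 normalized counts in IRKO replicate 2, against 908 to 919 in the other 3 IRKO libraries. Cadps had 1028 in IRKO replicate 4, against 1145 to 1160. Slc17a7, the vesicular glutamate transporter of cortical excitatory neurons, had 9053 in IRKO replicate 1, against 10665 to 10996. Tyrobp, a microglial adaptor, had 4918 in IRKO replicate 3, against 6064 to 6112. Cldn10, an astrocyte claudin, had 262 in IRKO replicate 3, against 194 to 198. Hbb-bt, a haemoglobin gene with near-identical paralogs and so uncertain as a single gene, had 94.1 in IRKO replicate 1, against 6.82 to 18.7.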

How the results depend on the processing

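Under pseudocounts of 0.5 and 5, no filter, a filter at 50, TMM, quantile normalization, no variance trend, edgeR and DESeq2 (also without IRKO replicate 1, added after the data had been seen), the counts stayed at 7 genes higher and 0 lower. Scaled to the microglial list, 0 were called higher and 5 lower, with a median of −0.41; Calb1 (−0.14), Calb2 (−1.26), Sst (−0.048), Vip (−1.06), Reln (−0.74), Penk (−1.34) and Tac1 (−0.68) turned negative. Scaled to the pan-neuronal list, 5 were called higher and 1 lower, with a median of 0.24; Calb2 (−0.61), Vip (−0.42), Reln (−0.10), Penk (−0.69) and Tac1 (−0.035) turned negative. These scalings moved the median of all genes to −1.44 and −0.79 by construction. Calb2 was −0.15 with edgeR and −0.15 with DESeq2, with its sign also set by which Ctr library was kept. Leaving out each library gave Calb2 values of −0.99 to 1.40, Penk values of −0.36 to 0.62, 7 to 8 genes higher, 0 to 0 lower, a median of 0.86 to 1.38 and 6113 to 7813 calls over all genes. The labels link samples of the same number by nothing beyond that number. Their deviations from the group means correlated at −0.08 and 0.08. With 2 Ctr libraries the deviations of 1 mirror those of the other, so this cannot show whether samples were paired. In a fit with the replicate block, IRKO replicates 3 and 4 have no Ctr partner, so its estimates rest on replicates 1 and 2 of each group. In that fit 8 genes were higher and 0 lower, the median was 1.12 and 6935 genes were called. Calb2 was −0.28 and Penk −0.083, while Vip was called higher at 0.66. With 2 Ctr libraries, each control value carries much of a result. The 10 genes had 174 to 6583 reads per library.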

Other observations

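Markers of excitatory neurons of cortex and hippocampus were also higher in IRKO as deposited. Of 12 such genes 10 were called higher and 1 lower by limma, with a median log2 change of 1.01 that was −0.45 scaled to the microglial list. Neurod2, a transcription factor of these neurons, had 1553 to 2022 normalized counts in IRKO, against 571 and 788 in Ctr. Tbr1 and Neurod6 changed by 1.30 ± 0.219 and 1.195 ± 0.156 (log2, SE). The gene called lower was Rorb, of cortical layer 4 neurons but not only of them, at 287 to 397 in IRKO, against 1711 and 1617 in Ctr. The cells its transcripts came from were not measured.

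The labels give whole brain, yet some transcripts that define cerebellar neurons were near 0 in all 6 libraries. Pcp2, of Purkinje cells, had 0.972 to 1.98 normalized counts in IRKO, against 1.12 and 3.87 in Ctr. Ppp1r17, also of Purkinje cells, had 2.96 to 5.84 in IRKO, against 2.25 and 3.87 in Ctr. Gabra6, of granule cells, had 0 to 2.91 in IRKO, against 0 and 0.968 in Ctr. Cbln3, of granule cells too, had 3.90 to 4.95 in IRKO, against 5.62 and 4.84 in Ctr. These 4 genes were chosen from the cerebellar list after their values were seen. Car8, of the same list, had 84.8 to 131 normalized counts in IRKO, against 727 and 643 in Ctr. Of the 13 genes of the cerebellar list 9 passed the filter. Limma called 4 of them higher (Itpr1, Neurod1, Cbln1 and Zic1; 2 without Ctr replicate 1) and 3 lower (Car8 and Pax6 among them), and the genes named here are ones that other brain cells also express. Pvalb, Calb1 and Reln, which cerebellar neurons make strongly, had at least 423 normalized counts in every IRKO library and at least 278 in every Ctr library. Which cells these transcripts came from was not measured.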
